A study of Mus musculus with 4 samples.

Results

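Single-exon transcripts assembled far from any annotated gene made up 1055 of the 35299 loci of the series. The rule that chose them used the transcript models alone, apart from the 5 left out below, but was set with earlier results of these data known. The loci are given by the identifiers of the models (XLOC) and their positions. Each locus had no UCSC model, only intergenic transcripts of 1 exon, and a span more than 50 kb from the span of every locus that has a UCSC model. The models gave 7254 single-exon intergenic loci in all. Another 5 abundant ones were left out by name, of which 4 lay beyond the distance limit and 1 within it. The 6194 other single-exon intergenic loci lay within 50 kb of a locus with a UCSC model, and 331 spliced intergenic loci lay beyond it. Both sets serve as comparisons. All positions are 1-based coordinates on mouse build mm9.

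The data came from 4 biological replicates of 1 group, Sham. Per the labels these were hearts of C57BL/6J mice aged 12 weeks, sampled 2 weeks after a sham operation, at the site that would border an infarct. The free-text description of replicate 4 names an infarct border without the word sham, while its title and treatment say sham, so it stayed in the group. Poly(A)-selected RNA was sequenced as paired reads of 100 bases. The count columns, headed 3RL, 7LR, 8R and 12RL, appear in no label and are not tied to replicate numbers, so which library is replicate 4 is not known. Values are normalised read counts, that is reads per locus divided by 1 size factor per library. The models carry no gene symbols, so the heart label was not checked against marker genes here. With 1 group there is no condition to compare, and the report describes where the loci lie, how much RNA they give and how far the hearts differ.

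Gene deserts are long stretches of the genome without annotated protein-coding genes. Many hold distal enhancers, the regulatory DNA elements that act on genes far away, and long intergenic noncoding RNAs, which are often present at low level and in few tissues. Transcripts built from 1 exon lack the splice junctions that show the strand of a read, so their direction cannot be read from the model. Of the 1055 loci, 1054 carried no strand, as did 6166 of the 6194 loci near annotated ones, while all 331 spliced desert loci had a strand. No sequence is shown, because no genome of build mm9 was used here.

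The desert loci were short, and most had few reads. The median exon length was 1083 bases (quartiles 726 and 1730.5), from 106 to 11227 bases. A total of 28 loci were shorter than 200 bases and 37 were 5000 bases or longer. All but 2 loci had a single transcript model. The distance to the nearest locus with a UCSC model had a median of 125880 bases and reached 1.62 Mb. The models just inside the limit were XLOC_030171 at chr7:125472853-125475368, at 50002 bases, and XLOC_035075 at chrX:58911681-58912722, at 50069 bases, with mean normalised read counts of 4.64 and 11.1. Just outside it were XLOC_035138 at chrX:102907779-102908511, at 49972 bases, and XLOC_007217 at chr12:71862177-71863836, at 49966 bases, with means of 2.05 and 11.8.

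The desert loci clustered in few deserts. On the placed chromosomes, 2838 gaps between loci with a UCSC model exceeded 100 kb, the shortest gap that can hold a member. Of these, 396 (14.0%) held at least 1 desert locus, and 215 held exactly 1. The 16 gaps with 10 or more held 263 loci, 24.9% of the total. Longer gaps held a locus more often, from 5.65% of the 1291 gaps of 100 to 200 kb to 30.8% of the 240 gaps over 1 Mb. Per Mb of eligible gap, that is gap sequence more than 50 kb from both ends, the order turned: 2.65 loci in the shortest class, 1.90 in gaps of 200 to 500 kb, 1.25 in gaps of 500 kb to 1 Mb and 0.644 in the longest. Among the autosomes the density ran from 2.18 per Mb on chromosome 10 to 0.541 on chromosome 7, and chromosome X had 0.440.

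Most desert loci had a close neighbour of the same kind. Another desert locus lay within 1 kb of 451 loci (42.7%) and within 10 kb of 664 (62.9%, 95% Wilson interval 60.0 to 65.8, which treats loci as independent). Joined wherever neighbours lay no more than 10 kb apart, the 1055 loci formed 600 runs, of which 391 held a single locus and 30 held 5 or more. Loci of 1 run may be pieces of 1 transcript and are not independent. The run with the most loci, at chr12:16067765-16122938, held 20 loci over 55174 bases, whose exons covered 61.6% of it. The next held 14 loci at chr6:109824965-109853320, covering 70.3%, and 11 at chr3:115185920-115216866, covering 58.5%.

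The gap with the most loci, chr12:15894962-16541416, held 37 desert loci over 473 kb. Their summed normalised read counts were 529 (3RL), 1174 (7LR), 488 (8R) and 810 (12RL). The gap was thus highest in 7LR and lowest in 8R and 3RL. Single loci had a median mean of 10.3, from 5.28 to 194, and the values per kb of exon stayed between 4.41 and 17.8. The same gap held 7 spliced intergenic loci, the most abundant at 619 normalised read counts, and 5 of the 37 lay within the span of one. Of its 19 desert loci averaging 10 or more, 15 were highest in 7LR, 3 in 12RL and 1 in 3RL.

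**Figure D1:**
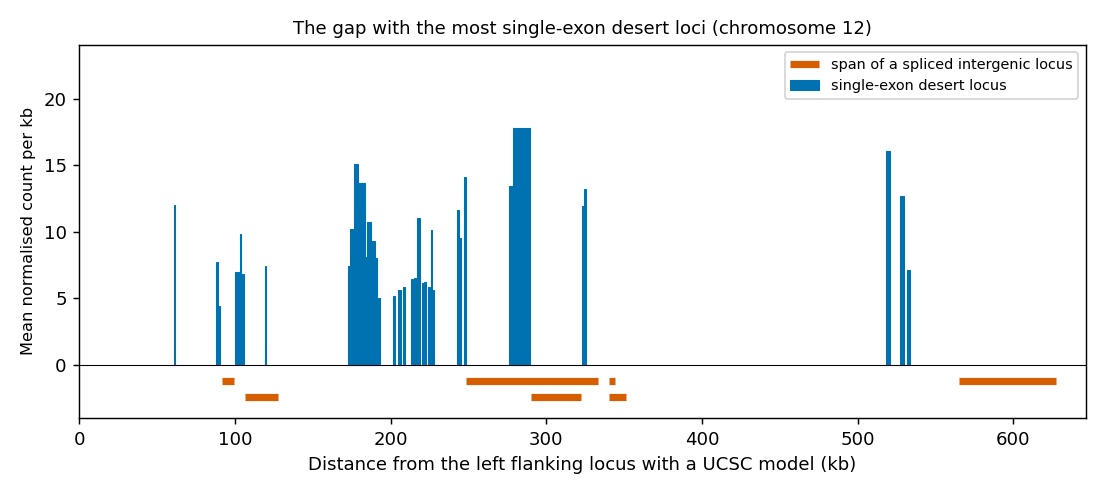
Mean normalised read count per kb of exon (y axis, n = 4 libraries) of the 37 desert loci in the gap on chromosome 12, drawn as bars to their width against the distance in kb from the left flanking locus with a UCSC model. Orange lines are the spans of the 7 spliced intergenic loci. Bars stand between 4.41 and 17.8 and fall into groups.

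The gap at chr6:108812063-110595591 held 32 desert loci and included some of the most abundant of all. Their sums were 1915 (3RL), 3058 (7LR), 2085 (8R) and 2367 (12RL). In the gap at chr4:36898778-39397325, 23 loci summed to 396 (3RL), 469 (7LR), 822 (8R) and 520 (12RL). The gap at chr5:18735868-19413678 held 22 loci and no spliced intergenic locus, with 935 (3RL), 916 (7LR), 1339 (8R) and 817 (12RL). The sums of the 2 last gaps were highest in 8R, and those of the gaps on chromosomes 12 and 6 in 7LR. Single loci weighed heavily in such sums. XLOC_023034 gave 397 of the 822 in 8R on chromosome 4, and 82.0 of the 520 in 12RL. XLOC_027358 gave 1961 of the 3058 in 7LR on chromosome 6. Of the 15 loci averaging 10 or more in the gap on chromosome 4, 7 were highest in 8R and 5 in 12RL.

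Together the desert loci, without those left out by name, took a very small share of the reads. With the 4 left-out loci that lay beyond the distance limit put back, the mean share was 0.237% ± 0.107 (SD, n = 4). The libraries held 108345923 (12RL) to 160670654 (8R) recovered reads. Desert loci took 0.0117% in 3RL (95% Wilson interval 0.0115 to 0.0119), 0.0177% in 7LR (0.0175 to 0.0179), 0.0124% in 8R (0.0122 to 0.0126) and 0.0154% in 12RL (0.0151 to 0.0156), with a mean of 0.0143% ± 0.00277 (SD, n = 4). The share was highest in 7LR, 1.51 times that of 3RL, and these intervals, which cover counting error only, do not overlap. The median desert locus had 5 (3RL), 8 (7LR), 5 (8R) and 4 (12RL) reads. In all, 401 loci (38.0%) had a mean of 10 or more normalised read counts, 607 were above 0 with a lower mean, and 47 were at 0 in every library. A count of 0 allows up to 3 reads, which is 3.41 to 4.73 normalised counts. Of the 6194 loci near annotated ones 37.1% had a mean of 10 or more, and of the 331 spliced desert loci 76.1%. It was 57.3% for loci with a UCSC model, and 18912 of all 35299 loci reached that mean. The share at 0 in every library was 4.45% for desert loci and 1.26% for the nearby single-exon loci. It was 2.72% for spliced desert loci and 28.1% for loci with a UCSC model.

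Among the loci kept, a handful carried much of the signal. The 3 most abundant took 22.2% of the normalised counts of all desert loci and the 10 most abundant 33.9%. XLOC_020880 at chr3:19794839-19801212, a single exon of 6374 bases lying 55.8 kb from the nearest locus with a UCSC model, was the first. Its normalised read counts were 2042 (3RL), 2007 (7LR), 1617 (8R) and 2535 (12RL), with a mean of 2050 ± 377 (SD, n = 4). The 4 hearts lay within a factor of 1.57 at this locus.

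The second, XLOC_001679 at chr1:104524766-104524915, was only 150 bases long and lay 1.45 Mb from any locus with a UCSC model. Its normalised read counts were 1590 (3RL), 1307 (7LR), 1465 (8R) and 2952 (12RL). The value in 12RL was 1.86 times the next. Per kb of exon it stood at 12191, against 719 for the next desert locus, XLOC_001719 at chr1:124253708-124253818, which was 111 bases long. How reads with near-identical copies in the genome were counted is not given in the sources used here, so the levels of such short loci are uncertain.

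The third and the eighth lay side by side on chromosome 6, separated by fewer than 100 bases. XLOC_027358 at chr6:108881828-108885332 had 1286 (3RL), 1961 (7LR), 1149 (8R) and 1676 (12RL). Its neighbour XLOC_027357 at chr6:108881039-108881770 had 300 (3RL), 339 (7LR), 310 (8R) and 225 (12RL). Both were highest in 7LR, but 12RL was second at the first and lowest at the second. Per kb they stood at 433 and 401. Both lay within the span of the spliced locus XLOC_026817 at chr6:108866791-108888771, whose own mean was 345 ± 55.7 (SD, n = 4). That spliced locus was highest in 12RL, at 408, with 372 in 7LR.

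XLOC_007212 at chr12:71765176-71775665, an exon of 10490 bases, had the widest range, as a ratio, of the 10 most abundant. It had 255 (3RL), 1346 (7LR), 456 (8R) and 880 (12RL), a range of 5.27-fold. It lay within the span of XLOC_006232 at chr12:71750640-71798347, a spliced locus of up to 3 exons with 670 (3RL), 2176 (7LR), 1078 (8R) and 1575 (12RL). The libraries stood in the same order at both loci.

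XLOC_014225 at chr17:15402763-15413989 was the longest desert locus, at 11227 bases, and the most even between hearts of those averaging 50 or more. It had 517 (3RL), 624 (7LR), 538 (8R) and 572 (12RL), a coefficient of variation (CV) of 8.32%. Among the other long loci, XLOC_033885 at chr9:90922683-90933534 was highest in 8R (572, with the others at 238 to 356). XLOC_008683 at chr13:68229270-68240184 had 123 in 3RL, with the others at 264 to 360, and XLOC_007087 at chr12:16173888-16184757 ran from 125 in 8R to 251 in 7LR. The spliced loci whose spans held XLOC_033885 and XLOC_007087 were highest in other libraries. XLOC_033357 was highest in 12RL (1337, with 902 in 8R) and XLOC_006561 in 8R (665, with 630 in 7LR). The other loci of the 10 most abundant were XLOC_025165 at chr5:18837862-18844712 (348 ± 76.4, SD, n = 4), XLOC_025297 at chr5:58708783-58717520 (280 ± 109) and XLOC_003484 at chr10:56694811-56695453 (269 ± 89.6).

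**Figure D2:**
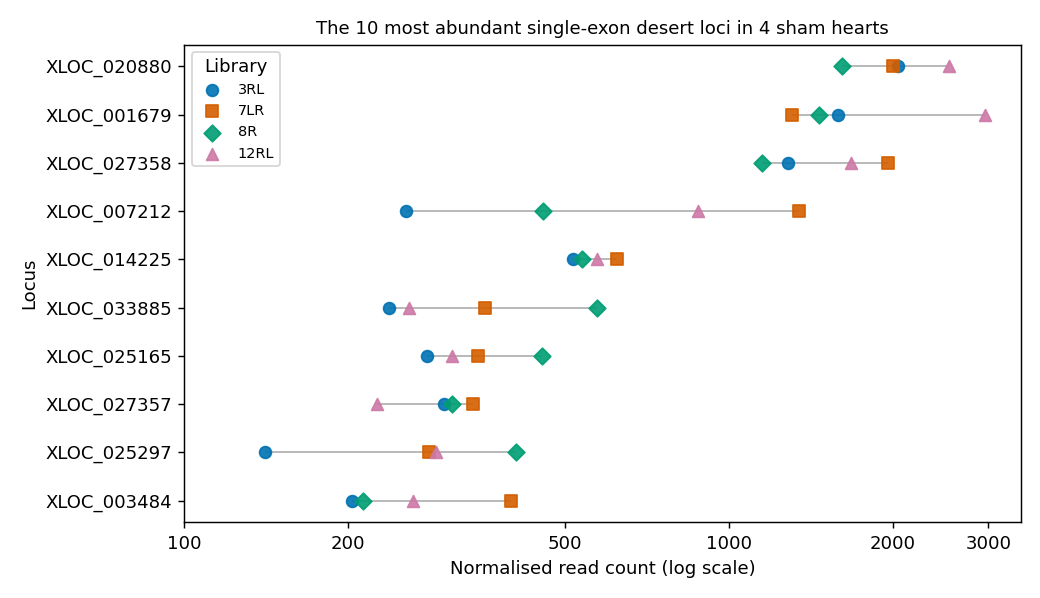
Normalised read count (x axis, log scale) of the 10 most abundant desert loci in each of the 4 libraries, ordered by mean from top to bottom, with a grey line from the lowest to the highest library. As ratios of highest to lowest library, XLOC_014225 has the narrowest range of these 10 loci (517 to 624) and XLOC_007212 the widest (255 to 1346).

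Of the 110 desert loci more than 500 kb from any locus with a UCSC model, 49 (44.5%) had a mean of 10 or more and 10 were at 0 in every library. At 50 to 100 kb, 36.3% of 421 had a mean of 10 or more. The gap on chromosome 4 gave 23 of the 110 loci and 15 of the 49. Runs of 14 and 10 loci on chromosome 6 also lay beyond 500 kb. Such neighbours are not independent, and the part of distance was not tested. Besides the 150-base locus on chromosome 1, the farthest from any UCSC model were XLOC_003464 at chr10:47194330-47195500 (1.62 Mb away, mean 3.11), XLOC_003465 at chr10:47221901-47225901 (1.59 Mb, 5.34), XLOC_027138 at chr6:10639675-10641692 (1.21 Mb, 54.8) and XLOC_027137 at chr6:10348238-10355619 (1.15 Mb, 47.5). XLOC_027138 had 85.9 (3RL), 31.9 (7LR), 60.3 (8R) and 41.0 (12RL). XLOC_027137 had 20.3 (3RL), 54.7 (7LR), 81.9 (8R) and 33.1 (12RL). The 2 loci on chromosome 6 thus differed in which heart was highest.

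Among desert loci above 0, the mean per kb of exon had a median of 7.03 (quartiles 3.81 and 11.6). By distance, the median was 6.53 at 50 to 100 kb, 6.96 at 100 to 200 kb, 7.50 at 200 to 500 kb and 8.18 beyond. Spearman's rho between distance and value per kb, across 1008 loci that share libraries, was 0.0526 to 0.104 in the 4 libraries. The rho with the value per kb of the nearest locus with a UCSC model lay between -0.0275 and 0.0108. By length, loci under 500 bases had the second highest median per kb, 14.3, loci of 5 kb or more had 15.4, and the classes between had 6.10 to 8.81.

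Per kb, desert loci stood below the spliced loci of the same kind of region. The median of log2(value per kb + 1) was 2.66 (3RL), 3.27 (7LR), 2.75 (8R) and 2.91 (12RL) for single-exon desert loci, and 3.93, 4.18, 4.06 and 3.93 for spliced desert loci. The single-exon loci were lower in 4 of 4 libraries, with a mean difference of -1.13 ± 0.19 on the log2 scale (SD, n = 4; exact two-sided sign-flip permutation test, p = 0.13, 2 of 16 sign patterns and the smallest share possible with 4 libraries). An assembled locus needs reads to exist, so loci with few reads may be missing from either set. A spliced model also needs reads across a splice junction, so the 2 sets need not lose such loci to the same degree. How far this enters the difference was not tested.

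Against single-exon loci within 50 kb of annotated ones, the difference in level was about as large as its spread between libraries. The medians of the nearby loci were 2.64 (3RL), 2.92 (7LR), 2.59 (8R) and 2.84 (12RL). Desert loci were higher by 0.01 (3RL), 0.35 (7LR), 0.16 (8R) and 0.07 (12RL), a mean of 0.15 ± 0.15 (SD, n = 4; exact two-sided sign-flip permutation test, p = 0.13). Without 7LR the mean difference was 0.08. Over all 4 libraries it turned to -0.04 when desert loci within 10 kb of a spliced intergenic locus were left out, and to -0.03 when such loci were left out of both sets. It rose to 0.33 at a distance limit of 200 kb, positive in 4 of 4 libraries, and fell to 0.07 without division by length, positive in 2 of 4. With loci at 0 included, it was also 0.07 and positive in 2 of 4 libraries, from -0.04 to 0.27.

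Many desert loci lay in or beside spliced intergenic loci. In all, 232 (22.0%) overlapped the span of 1 of 82 spliced intergenic loci. Only 3 of the 232 overlapped an exon of it, so the others lay between its exons. A further 213 lay within 10 kb, while 471 lay over 50 kb away and 5 were on chromosome Y, which had no spliced intergenic locus. The median per kb was 8.62 for desert loci in such a span, 7.60 within 10 kb of one, 6.53 at 10 to 50 kb and 6.20 farther away. The share with a mean of 10 or more was 51.7%, 46.0%, 41.8% and 27.0% in the same order.

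Loci in the span of a spliced locus followed its level. Spearman's rho between their values per kb, across 226 loci above 0, was 0.613 (3RL), 0.624 (7LR), 0.569 (8R) and 0.708 (12RL). For the 433 loci over 50 kb from any spliced intergenic locus, the rho with the nearest one was 0.0291 to 0.0688. These are descriptions across loci that share libraries, and the 226 loci lay in only 81 hosts. As whole sets, the median per kb among loci above 0 was 7.03 for desert loci and 15.7 for spliced desert loci. The desert locus was below its host per kb in 204 of the 226, a count not set against other spliced loci. Exceptions included the pair on chromosome 6, above. XLOC_003484 lay within XLOC_002849 at chr10:56687348-56702278, a host with 10578 ± 1314 normalised read counts (SD, n = 4). It had 203 (3RL), 397 (7LR), 213 (8R) and 263 (12RL). How reads that overlap several loci were counted is not given in the sources used here.

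**Figure D3:**
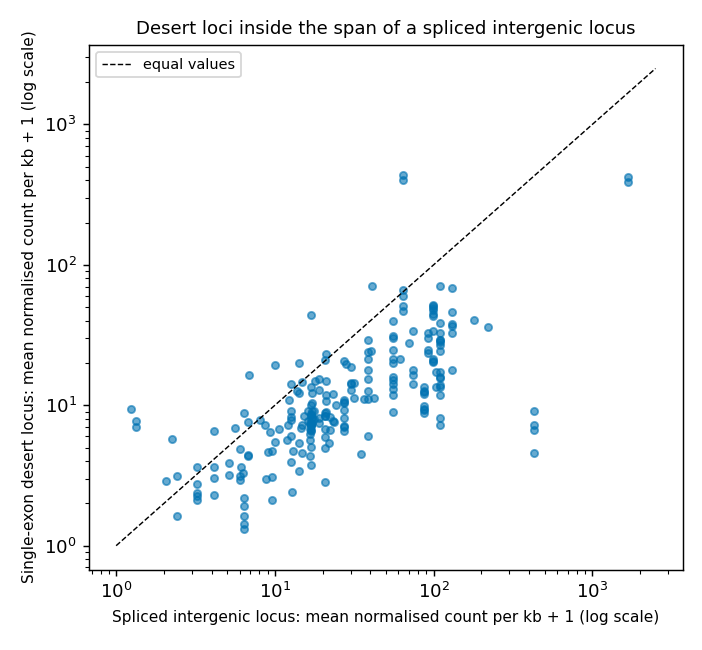
Mean normalised read count per kb + 1 of 226 desert loci (y axis, log scale) against that of the spliced intergenic locus whose span they overlap (x axis, log scale), each point 1 desert locus, n = 4 libraries. Most points, 204, lie below the dashed line of equal values, and the values rise together.

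Desert loci within 10 kb of each other were often highest in the same heart. Among neighbours, each averaging 10 or more, 89 of 144 pairs (61.8%) no more than 10 kb apart were highest in the same library. The share was 35.2% of 91 pairs at 10 kb to 1 Mb and 27.4% of 146 pairs over 1 Mb apart. Desert loci inside a spliced locus shared its highest library in 51 of 116 cases (44.0%), where both had a mean of 10 or more. Over 50 kb away, desert loci shared the highest library of the nearest spliced locus in 33 of 99 cases (33.3%). Of the desert loci averaging 10 or more, 45.4% were highest in 7LR, so unrelated loci also match in part. The share expected from this was not computed, so the lower shares cannot be read as agreement. Close pairs of 1 run are not independent.

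Library 7LR was most often the highest. Of the 401 desert loci averaging 10 or more, 182 (45.4%) were highest in 7LR, 86 in 8R, 85 in 12RL and 48 in 3RL. Over all 18912 loci that reached it, 21.6% were highest in 7LR, 34.3% in 8R, 20.7% in 12RL and 23.3% in 3RL. In 7LR the share was 33.8% of the nearby single-exon loci, 39.3% of the spliced desert loci and 18.3% of loci with a UCSC model. Within the desert loci the median deviation from the mean of the 4 libraries was 0.34 in 7LR, 0.10 in 12RL, -0.05 in 8R and -0.27 in 3RL on the log2 scale. With each run of neighbours summed and counted once, 121 of 283 runs (42.8%) with a summed mean of 10 or more were highest in 7LR. Scaling to equal table totals raised the count in 7LR to 202 and the share over all loci to 35.2%. By exon length, whose part in this was not tested, 7LR led in the classes of 500 to 1000, 1000 to 2000, 2000 to 5000 and over 5000 bases, with 21 of 58, 66 of 144, 76 of 142 and 15 of 37 loci, and not under 500 bases, with 4 of 20. By distance, 7LR led in each class up to 500 kb, with 74 of 153, 50 of 106 and 43 of 93 loci at 50 to 100, 100 to 200 and 200 to 500 kb. Beyond 500 kb 8R led, with 20 of 49 loci against 15 in 7LR. Of those 49, 15 lay in the gap on chromosome 4 with 23 loci, where 7 were highest in 8R and 2 in 7LR. Whether distance has a part in this was not tested.

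**Figure D4:**
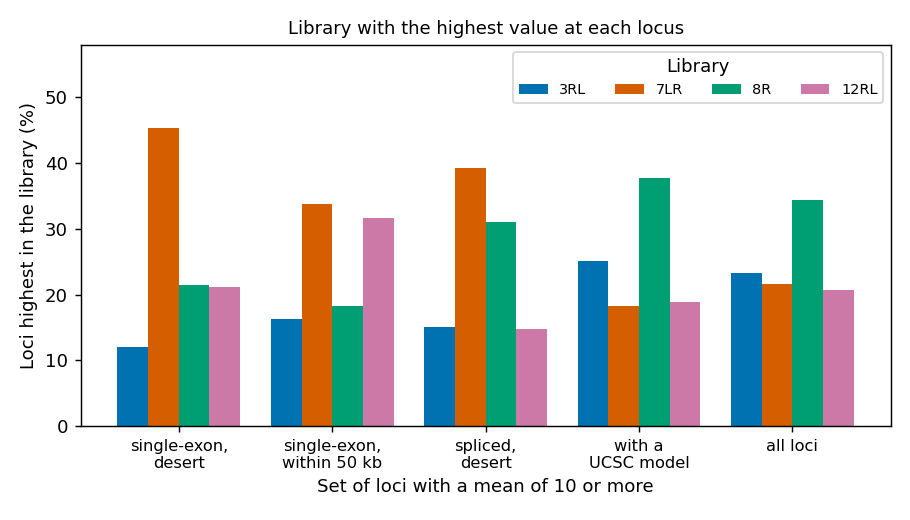
Percentage of loci with a mean of 10 or more (y axis) that were highest in each of the 4 libraries, for single-exon desert loci, single-exon loci within 50 kb, spliced desert loci, loci with a UCSC model and all loci. The bar of 7LR is the tallest of the desert loci at 45.4%, and that of 8R is the tallest of all loci at 34.3%.

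The hearts differed widely at desert loci, and their median SD of log2 values lay above that of the other sets in each bin of read count. The median SD between libraries was 0.58 (log2) for the 401 loci, with a median CV of 40.9%, against 0.49 for nearby single-exon loci, 0.35 for spliced desert loci and 0.16 for loci with a UCSC model. Low counts widen the spread, so bins of the mean were set side by side, with no test. At a mean of 10 to 15 the medians were 0.75, 0.58, 0.59 and 0.54 in the same order, over 130, 743, 25 and 419 loci. At 50 to 100 they were 0.57, 0.37, 0.32 and 0.30, over 39, 224, 40 and 812 loci. The order by CV was not the same in every bin: at a mean of 15 to 20 the median CV was 39.7% for 72 desert loci and 41.7% for 18 spliced desert loci. At 50 to 100 the median CV of desert loci was 38.8%, where counting error alone gives 13.7%. The libraries also agreed less over these loci, with Pearson's r of 0.643 (8R and 12RL) to 0.775 (3RL and 12RL) across the 401 loci, against at least 0.986 across all 18912, which span a wider range of levels.

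**Figure D5:**
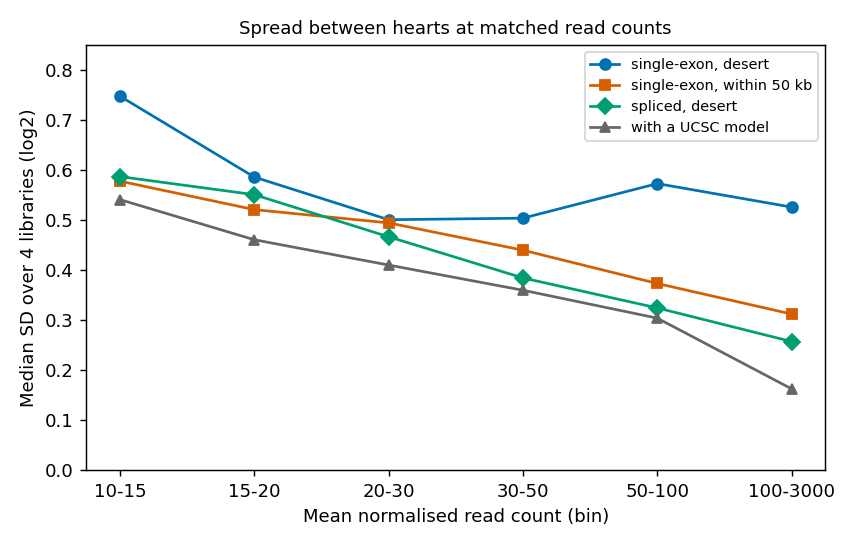
Median SD of log2(value + 1) over the 4 libraries (y axis) in bins of the mean normalised read count (x axis), for single-exon desert loci, single-exon loci within 50 kb, spliced desert loci and loci with a UCSC model. The desert loci lie above the other sets in every bin, from 0.75 in the lowest bin to 0.53 in the highest. In the highest bin the loci with a UCSC model have more reads than the others.

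At the 70 desert loci averaging 50 or more, the CV ran from 8.32% to 137%, with a median of 37.9%. The most variable was XLOC_019155 at chr2:7531729-7537924, with 5.97 (3RL), 44.4 (7LR), 152 (8R) and 1.58 (12RL). It was detected mainly in 8R, with 134 of its reads there and 1 read in 12RL. XLOC_016566 at chr19:36332872-36334351 split the hearts into pairs, with 126 in 7LR and 112 in 12RL against 15.5 in 3RL and 23.9 in 8R. Its host XLOC_016279 at chr19:36282475-36342156 had 3590 in 7LR and 3582 in 12RL against 2428 in 3RL and 3030 in 8R. XLOC_023034 at chr4:38790922-38793534 was highest in 8R (397, with the others at 82.0 to 127). Its host XLOC_022107 at chr4:38519147-38803069 was also highest there, at 1032, with the others at 631 to 799.

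The most even loci, after XLOC_014225, were XLOC_025180 at chr5:19212246-19221427 with a CV of 11.9% (220 ± 26.2, SD, n = 4), XLOC_001612 at chr1:75996411-76000285 with 12.9% (75.1 ± 9.68), XLOC_008498 at chr13:5638576-5641671 with 13.2% (141 ± 18.5) and XLOC_007108 at chr12:20248993-20252278 with 14.4% (60.1 ± 8.65). XLOC_008498 was highest in 7LR, at 161, while the spliced locus around it, XLOC_007917, was highest in 8R, at 1521. Over all desert loci of mean 10 or more, a single library stood apart from the other 3 by Dixon's ratio at 27 of 401 (6.73%), against 4.88% of all loci. Of these, 15 were upward (3.74%, against 3.35% of all loci), 8 of them in 7LR. The other 12 were downward (2.99%, against 1.53%), 6 of them in 3RL. No test of these shares was run.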

How the data were processed

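The authors deposited a table of signal values, read counts per locus divided by 1 size factor per library, and exon positions of transcript models. The submitters' processing notes name DESeq, HTSeq 0.5.4p2, Cufflinks 2.0.2 and TopHat2 2.0.5, with genome build mm9. Which libraries were assembled, strandedness and counting mode: not given in the sources used here. Every value was a whole multiple of 1 step per column within 0.001, so whole reads were recovered. No count test was run, since there is 1 group.

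Members and comparisons were chosen with earlier results of these data known. Distances ran between spans, and values per kb used the union of exons. Levels were log2(value + 1) among loci with a mean above 0, so differences of low loci are understated. Loci of mean 10 or more entered spread and rankings, and of mean 50 or more the ranking by CV. Loci were named by fixed ranks: the 10 highest by mean, 5 by value per kb, 5 longest, 5 farthest, 5 with the highest and 5 with the lowest CV. Dixon's ratio used the 95% critical value of 0.829. The sign-flip p-values rest on the differences of the 4 libraries and take no account of variation among loci. Where all 4 differences have 1 sign, the sign-flip p-value is 0.13 whatever their size or spread. Alternatives were other pseudocounts, minimum means, scalings (TMM in edgeR 4.0.16, R 4.3.3), distance limits and leaving out each library. Steps ran in Python 3.11.15, pandas 2.3.3 and scipy 1.17.1 and were tested on simulated data. No pair of libraries differed by counting error alone: the chi-square per degree of freedom over the 401 loci was at least 4.48. No known repeat was at hand for comparison, so this cannot tell whether 2 libraries share a heart. Planned sequence features were not computed without a genome of build mm9.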

Additional observations from a re-analysis of the deposited data

Results flagged for a closer look

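Dixon's ratio passed its critical value at 3 of the 28 named desert loci, against 4.88% of all loci averaging 10 or more. Chance alone would let it pass in about 1 of 20 groups. All 3 are among the most variable loci and were ranked on the same values, so that rate does not apply to them. At XLOC_015511 (chr18:54858714-54859029, 316 bases) library 12RL had 391 normalised read counts, with 87.1 (3RL), 62.6 (7LR) and 97.8 (8R), a Dixon ratio of 0.893. At XLOC_023034 (chr4:38790922-38793534) library 8R had 397, with 127 (3RL), 123 (7LR) and 82.0 (12RL), a ratio of 0.858. At XLOC_010095 (chr14:55959409-55966336) library 7LR had 146, with 41.8 (3RL), 43.2 (8R) and 58.3 (12RL), a ratio of 0.841. Each was high in a different library.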

How the results depend on the processing

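The level below spliced desert loci kept its direction in all alternatives run (-2.19 without division by length to -0.62 with a pseudocount of 10). The level against nearby single-exon loci turned to -0.037 without desert loci within 10 kb of a spliced intergenic locus, and to -0.025 without such loci in either set, which was chosen after seeing the data. Without 7LR it was 0.08, with limits of 25, 100 and 200 kb 0.09, 0.22 and 0.33, at a mean of 10 or more 0.23, and 0.07 each without division by length, with loci at 0 included and with a pseudocount of 10. Of desert loci, 946 had a mean of 1 or more and 70 a mean of 50 or more. Loci with a mean of 10 or more numbered 656, 248 and 142 at limits of 25, 100 and 200 kb. Without those near spliced loci they numbered 183. In that order the share of reads was 0.0225%, 0.00811%, 0.00451% and 0.00714%. Those highest in 7LR numbered 282, 108, 58 and 82 (43.0%, 43.5%, 40.8% and 44.8%, against 21.6% of all loci). Those with a library apart numbered 35, 16, 7 and 10 (5.34%, 6.45%, 4.93% and 5.46%, against 4.88% of all loci). At a mean of 50 or more, 33 were highest in 7LR and 4 had a library apart. With the 5 loci left out by name put back, the share was 0.237%. The median SD was 0.60 with a pseudocount of 0.1, 0.40 with 10, 0.55 at a mean of 50 or more and 0.54 to 0.57 without 1 library. The share with a neighbour was 59.4% within 5 kb, 71.1% within 50 kb and 53.9% without loci near spliced ones. Fewer or more loci follow from such limits by construction, and for other changes the cause was not tested. TMM, the median of ratios and equal totals changed no direction. Counting each run once, also chosen after seeing the data, gave 121 highest in 7LR. No paired analysis was possible because a second group is lacking. Depth limits most of these loci: counting error at 10 reads is a CV of 31.6%.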
